A study of Mus musculus with 8 samples.

Results

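The E2F and retinoblastoma family was examined in retinas of aged mice, in which 4 arrays labelled Mrp4-null were compared with 4 wild-type arrays. The family was taken as E2f1, E2f2, E2f3, E2f4, E2f5, E2f6, E2f7, E2f8, Rb1 and Rbl1, and its probes were those whose accession on the array belongs to one of these genes. This gave 15 probes for 10 of the 22911 genes named on the array. Every probe was kept apart, because probes of the same gene did not always give the same difference. The family was chosen by gene name, but it was proposed because E2f2 and Rb1 were already known to differ between the genotypes, so it counts as selected on the genotype differences of these genes. The genotype differences of its probes are therefore given as a description, with no p-value, and counts of members past the thresholds used for the whole array stand only beside the share of all probes.

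The Mrp4-null samples were from mice homozygous for the knockout of Mrp4 (gene symbol Abcc4), a transporter that exports cyclic nucleotides and drugs from cells, and the methods describe this line as maintained on a C57BL/6J background. Wild-type mice served as the controls. Both groups had the same labelled age of 46 to 55 weeks, and each sample was total RNA of whole retina labelled with Cy3 and hybridized alone. The methods name fewer mice than there were samples of a genotype and do not make clear whether a sample pooled several mice or several samples shared a mouse, and nothing in the labels ties a sample to an animal. The p-values therefore measure only the spread between these samples, which may be partly or, for the knockout label, wholly technical. The sex-linked signals given below differed between the wild-type samples, so these did not all hold RNA of the same mouse. How many mice they held is not known.

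The labels were first set against the targeted gene. The probe of Abcc4 had a log2 signal of 10.75 ± 0.09 under the knockout label and 6.83 ± 0.29 under the wild-type label (SD, n = 4 each). The lowest array labelled Mrp4-null (10.64) was above the highest wild-type array (7.13), and the log2 difference was 3.92 (SE 0.14, adjusted p = 1.36e-05 by limma). The knocked-out gene was thus higher under the knockout label, which goes against that label. Whether the probe lies in the deleted part of the gene was not known here, so whether it checks the label was not tested. Every direction below is that of the arrays labelled Mrp4-null. The 8 arrays shared 1 slide and its rows followed the genotypes, so row and genotype cannot be told apart. Signal well above background was seen for Xist, which is expressed in females, on all 4 arrays of the knockout label and on wild-type arrays 1 and 2. For Y-linked genes it was seen on wild-type arrays 2, 3 and 4 only, so wild-type array 2 showed both. Sex by these signals thus went largely with genotype, and sex and genotype cannot be fully told apart. The part of sex in the differences below was not tested. The 75th percentile of the signal ranged from 497 to 774 under the knockout label and from 514 to 786 under the wild-type label.

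E2F proteins are transcription factors that control entry into S phase. E2f1, E2f2 and E2f3 mainly activate genes of DNA replication and the cell cycle, E2f4 and E2f5 mainly repress them together with pocket proteins, E2f6 acts in Polycomb-like complexes, and E2f7 and E2f8 are atypical repressors that bind DNA without a DP partner. The pocket proteins Rb1, Rbl1 and Rbl2 bind E2F factors and hold their targets silent until cyclin-dependent kinases phosphorylate them. In the retina this pathway is best known from retinoblastoma, the tumour of the developing eye that follows loss of RB1, and neurons of the adult retina no longer divide.

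E2F factors also regulate several genes of their own family, so the promoters of the members were read for the E2F motif. The 250 bases before each annotated start were taken from a table of RefSeq promoters (GRCm38.p6), in which 7 of the 10 members were matched and Rb1, E2f4 and E2f5 were not. They were searched on both strands for TTTCCCGC, TTTCGCGC, TTTGCCGC and TTTGGCGC, of which a match on one strand can overlap a match on the other. At least 1 of these motifs was held by E2f3, E2f7 and Rbl1, that is by 3 of 7 members (42.9%), against 583 of the 27025 genes of the table (2.16%). Neither start of E2f2 nor the second start of E2f3 held one, and none was found for E2f1, E2f6 or E2f8. The 3 promoters with a motif are printed below with the first start of E2f2, the member with the largest difference between genotypes. Each runs 5′ to 3′ on the strand of the gene, with the motif in capitals.
E2f2, chr4:136172024-136172273, plus strand: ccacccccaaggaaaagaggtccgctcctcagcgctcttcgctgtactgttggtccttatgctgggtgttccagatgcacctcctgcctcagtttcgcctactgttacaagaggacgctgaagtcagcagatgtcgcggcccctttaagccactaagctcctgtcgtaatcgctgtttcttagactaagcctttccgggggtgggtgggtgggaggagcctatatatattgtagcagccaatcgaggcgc
E2f3, chr13:29986064-29986313, minus strand: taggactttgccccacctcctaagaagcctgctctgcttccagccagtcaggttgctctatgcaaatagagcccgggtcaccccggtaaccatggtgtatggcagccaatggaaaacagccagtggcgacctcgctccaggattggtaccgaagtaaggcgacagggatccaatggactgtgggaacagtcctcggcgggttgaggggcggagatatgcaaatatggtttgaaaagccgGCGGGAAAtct
E2f7, chr10:110745189-110745438, plus strand: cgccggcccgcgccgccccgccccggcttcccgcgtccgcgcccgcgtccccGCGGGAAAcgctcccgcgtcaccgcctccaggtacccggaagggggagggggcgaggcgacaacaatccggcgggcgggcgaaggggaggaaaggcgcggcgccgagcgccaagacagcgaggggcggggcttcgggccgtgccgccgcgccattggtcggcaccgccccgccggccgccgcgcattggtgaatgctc
Rbl1, chr2:157204535-157204784, minus strand: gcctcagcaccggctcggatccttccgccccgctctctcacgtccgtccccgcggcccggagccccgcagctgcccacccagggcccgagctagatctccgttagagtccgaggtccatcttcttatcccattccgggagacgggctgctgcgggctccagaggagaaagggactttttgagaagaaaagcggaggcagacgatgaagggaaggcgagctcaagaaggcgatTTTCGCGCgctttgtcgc
The motif of E2f3 was TTTCCCGC on the opposite strand, from 11 to 4 bases before the start. The same motif stood on the opposite strand of E2f7, from 198 to 191 bases before the start. Rbl1 held TTTCGCGC on its own strand, from 18 to 11 bases before the start. Of the genes with a called probe, E2f2 alone could be read for the motif. A match describes these letters only and does not show that a factor was bound.

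Of the 15 probes, 12 passed the filter on dim probes, for which all measured arrays of either genotype had to be well above background. They represented 9 of the 10 genes, since the probe of E2f8 did not pass. Probes counted as called when they differed at least 1.5-fold with an adjusted p below 0.05, by limma over all 37085 retained probes. This called 3 of the 12 member probes, all higher on the arrays labelled Mrp4-null, where 0.545% of all retained probes were called in either direction and 0.256% were called higher. The local pooled error test named in the methods, run here with p adjusted by Benjamini-Hochberg and the same fold, called the same 3 member probes, and 0.623% of all retained probes. In these 3 member probes there was no overlap between genotypes, which was so for 4.79% of all retained probes. Both probes of E2f2 and 1 of the 2 probes of Rb1 were the called ones. Their differences were those the family was selected on, so nothing is read from their share. In whole retina, fewer cells of a type and less RNA per cell cannot be told apart.

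**Figure D1:**
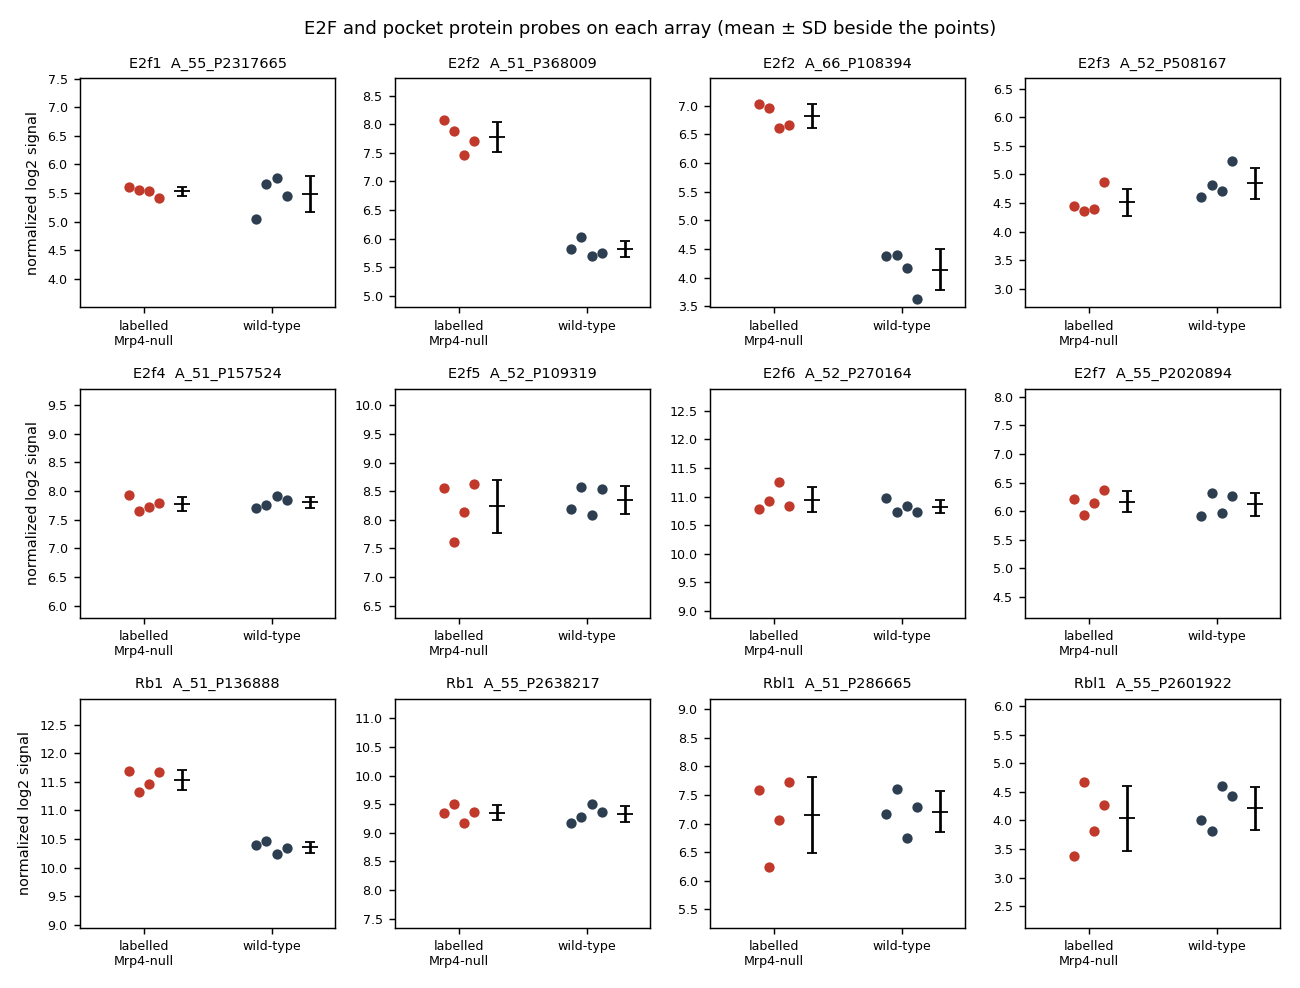
Normalized log2 signal of the 12 retained member probes on each array, with points for single arrays and lines for the mean and SD of 4 arrays. The arrays labelled Mrp4-null stand above all wild-type arrays for both E2f2 probes and for 1 Rb1 probe, and the groups overlap for the other probes.

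E2f2, an activator that also restrains proliferation in erythroid cells and T cells, showed the largest difference of the family. Its first probe (A_51_P368009, NM_177733) gave processed signals of 314, 188, 203 and 228 on the arrays labelled Mrp4-null. On the wild-type arrays the signals were 61.0, 72.8, 43.4 and 44.1. Every array labelled Mrp4-null was above every wild-type array. After quantile normalization the log2 signal was 7.78 ± 0.26 (SD, n = 4) against 5.82 ± 0.14 (SD, n = 4), a log2 difference of 1.96 (SE 0.14) or 3.89-fold.

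The second probe of E2f2 (A_66_P108394) was dimmer and pointed the same way. It read 151, 103, 114 and 110 on the arrays labelled Mrp4-null against 22.9, 22.9, 14.8 and 9.20 on the wild-type arrays. It was well above background on 2 of the 4 wild-type arrays, and it passed the filter only through the arrays on which it was high. Its normalized log2 signal was 6.82 ± 0.21 against 4.14 ± 0.36 (SD, n = 4 each), a log2 difference of 2.68 (SE 0.19) or 6.43-fold. The groups did not overlap, as for the first probe. The deviations of both probes from their genotype means correlated at Pearson r = 0.64 across the 8 arrays, a description over arrays that share a slide. The size of both differences depended on the background correction. With normexp correction, which adds an offset of 50 to the intensities and so compresses dim probes, the log2 differences were 1.20 and 1.02. The size of the second difference rests on wild-type signals at or near background.

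The other activators did not follow E2f2. The probe of E2f1 (A_55_P2317665, NM_007891), which drives both proliferation and apoptosis, had a log2 signal of 5.53 ± 0.08 under the knockout label and 5.48 ± 0.31 in wild type (SD, n = 4 each). Its log2 difference was 0.05 (SE 0.15), and the wild-type arrays ranged from 5.05 to 5.76 around the narrow Mrp4-null range of 5.42 to 5.60. The probe of E2f3 (A_52_P508167, NM_010093) was 4.51 ± 0.24 and 4.84 ± 0.27 (SD, n = 4 each). The log2 difference was -0.33 (SE 0.16) or 0.796-fold, and it was -0.20 without wild-type array 4 and -0.10 with the normexp correction. The groups overlapped, since Mrp4-null array 4 (4.87) was above wild-type arrays 1, 2 and 3 (4.61, 4.82 and 4.71).

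E2f4 and E2f5 are the repressors that work with pocket proteins in resting cells, and the groups overlapped for both. E2f4 (A_51_P157524, NM_148952) read 7.94, 7.66, 7.72 and 7.79 on the arrays labelled Mrp4-null against 7.71, 7.75, 7.91 and 7.84 on the wild-type arrays (log2 signal). Its log2 difference of -0.02 (SE 0.09) was the one closest to 0 in the family. E2f5 (A_52_P109319, NM_007892) was more variable, at 8.24 ± 0.47 and 8.35 ± 0.25 (SD, n = 4 each), with a log2 difference of -0.11 (SE 0.23). The widest gap in E2f5 was inside the group labelled Mrp4-null, where array 2 read 7.62 and array 4 read 8.63.

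E2f6, whose protein silences genes in Polycomb-like complexes, had a log2 signal of 10.95 ± 0.21 under the knockout label and 10.83 ± 0.11 in wild type (A_52_P270164, NM_033270, SD, n = 4 each). The log2 difference was 0.12 (SE 0.12). For the atypical repressor E2f7, 1 of 2 probes was retained (A_55_P2020894, NM_178609), at 6.16 ± 0.18 and 6.12 ± 0.20 (SD, n = 4 each), with a log2 difference of 0.04 (SE 0.13). The other probe of E2f7 (A_55_P2062598) was well above background on 3 arrays of each genotype, with processed signals from 6.75 to 24.2. E2f8 (A_55_P2000833, NM_001013368) was well above background on 2 arrays of each genotype. Its processed signals were 11.6, 11.1, 17.2 and 13.6 on the arrays labelled Mrp4-null against 8.70, 9.80, 13.0 and 12.5 on the wild-type arrays, too dim for a fold change to be given.

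Rb1, the retinoblastoma protein itself, gave different answers by probe. The first probe (A_51_P136888, NM_009029) read 3950, 1910, 3040 and 3730 on the arrays labelled Mrp4-null against 1430, 1720, 946 and 1150 on the wild-type arrays (processed signal). After normalization these were 11.69, 11.33, 11.46 and 11.68 against 10.39, 10.46, 10.23 and 10.35 on the log2 scale. The groups did not overlap, and the log2 difference was 1.18 (SE 0.11) or 2.27-fold.

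The second probe of Rb1 (A_55_P2638217) did not show this difference. It read 777, 559, 649 and 748 on the arrays labelled Mrp4-null against 624, 742, 577 and 569 on the wild-type arrays (processed signal). The normalized means were 9.35 ± 0.14 and 9.33 ± 0.15 (SD, n = 4 each), and the log2 difference was 0.03 (SE 0.10) or 1.02-fold. Both groups covered the same range. The deviations of the 2 probes from their genotype means correlated at r = -0.43 across the 8 arrays. Which parts of the Rb1 transcripts the probes read was not used here, so the difference is that of 1 probe and not of the gene as a whole.

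**Figure D2:**
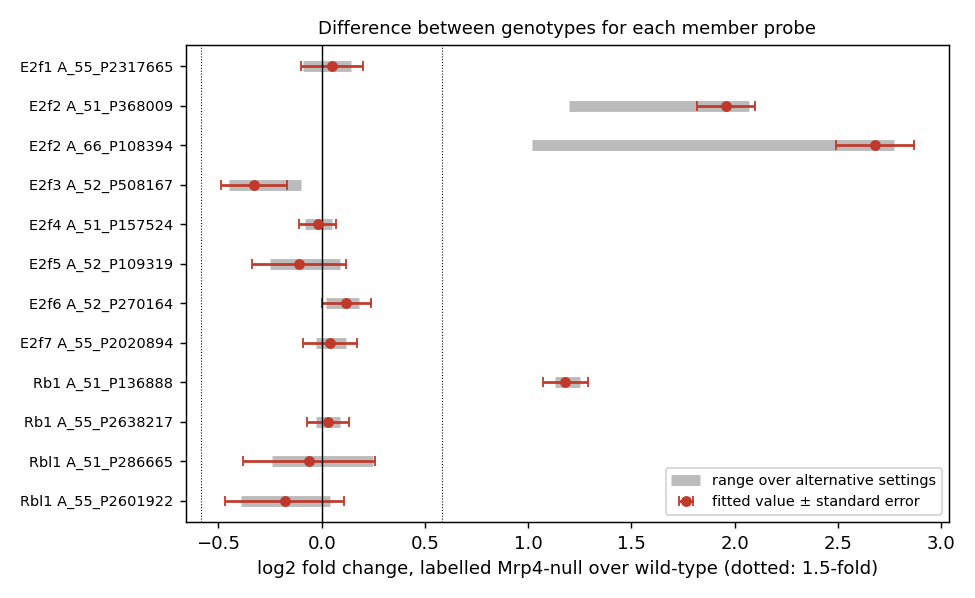
Log2 difference between the arrays labelled Mrp4-null and the wild-type arrays for the 12 retained member probes, with bars for the SE of 4 against 4 arrays, grey lines for the range over the processing alternatives and dotted lines at 1.5-fold. Only both E2f2 probes (1.96 and 2.68) and 1 Rb1 probe (1.18) lie beyond the dotted lines, and the other Rb1 probe lies at 0.03.

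Rbl1, the pocket protein that pairs mainly with E2f4 and E2f5, had 3 probes, of which 2 were retained. The first (A_51_P286665, NM_011249) read 220, 63.9, 155 and 231 on the arrays labelled Mrp4-null against 157, 225, 88.3 and 132 on the wild-type arrays (processed signal). Its normalized log2 difference was -0.06 (SE 0.32), with the widest spread of the family within a genotype (SD 0.67 on the arrays labelled Mrp4-null). The lowest arrays were Mrp4-null array 2 and wild-type array 3, those with the lowest 75th percentile of the signal in their groups (497 and 514). The second probe (A_55_P2601922, NM_001139516) ran the other way. It read 12.4, 22.3, 17.4 and 20.1 against 17.7, 15.0, 20.4 and 17.3 (processed signal), with a log2 difference of -0.18 (SE 0.29), and its highest normalized values were on the arrays on which the first probe was low. The directions of these differences were not stable. Without Mrp4-null array 2 the first probe was at 0.25, and without Mrp4-null array 1 the second was at 0.04. E2f1, E2f4, E2f5, E2f7 and the second Rb1 probe likewise changed sign in at least 1 alternative. The third Rbl1 probe (A_55_P2024773) was well above background on 1 array, with processed signals from 11.3 to 17.3.

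This relation with the signal of the array was then fitted, after the values had been seen, as a slope on the log2 of the 75th percentile with genotype in the model. Over all retained probes, 6.34% had a slope that passed an adjusted p under 0.05 by limma, and 2 of the 12 member probes did, both of Rbl1. The slope was 1.60 (SE 0.37, adjusted p = 0.0475) for the first Rbl1 probe and -1.46 (SE 0.31, adjusted p = 0.042) for the second. For E2f5 it was 0.95 (SE 0.34, adjusted p = 0.117) and did not pass. Neither Rbl1 probe passed once Mrp4-null array 1, 2, 3 or 4 or wild-type array 2 or 3 was left out, with an adjusted p of 0.0527 to 0.565 for the first probe in these fits. With the normexp correction the second slope was -0.31 (adjusted p = 0.0998). The directions of both slopes held in each of these fits. Both passed without wild-type array 1 and without wild-type array 4. E2f2 (slopes 0.16 and 0.26) and the changed probe of Rb1 (slope 0.42, adjusted p = 0.113) did not pass.

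**Figure D3:**
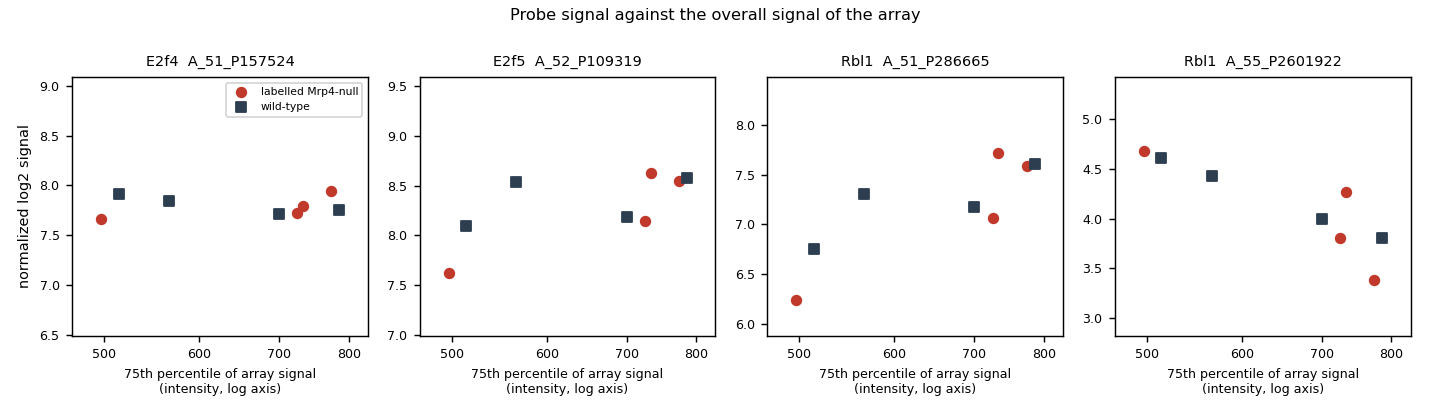
Normalized log2 signal of E2f4, E2f5 and the 2 retained probes of Rbl1 on each array, plotted on a log axis against the 75th percentile of the array's signal. The first Rbl1 probe (slope 1.60) is low on the 2 arrays at 497 and 514, the second (slope -1.46) is high there, and E2f4 has a slope of 0.03.

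The genes that act with the family were examined in 8 lists chosen for their role, with 106 genes in all, of which 92 had a retained probe. None of the 92 was called changed by limma, and the methods' local pooled error test also called 0. At an unadjusted p under 0.05, 6 of the 92 genes had a probe that passed (6.52%), against 7.9% of all genes with a retained probe. The smallest adjusted p was 0.217. The median log2 difference was -0.01, the same as over all genes to 2 decimals, and the listed genes, each by its brightest retained probe, ranged from -0.31 to 0.51. Over all their retained probes the lowest was a second probe of Mcm7, a helicase subunit, at -0.61, chosen after its value was seen. In the background, 0.652% of the genes with a retained probe had a called probe. A p that missed the threshold does not show that these genes were at the same level.

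Among the E2F targets, replication genes had 28 of 30 genes retained, 15 with a difference above 0 and 13 below (13 and 15 with the normexp correction), and a median of 0.01. The largest was that of Rrm2, a subunit of ribonucleotide reductase, at 0.51 (SE 0.29), followed by Uhrf1 at 0.40. Towards the lower end, Ezh2, a Polycomb methyltransferase, was -0.21. Mitotic genes had 10 of 18 retained with 9 above 0 under every scaling and a median of 0.12, and Top2a, Cdk1, Ccnb1, Bub1, Aurkb, Kif11, Kif23 and Nusap1 were too dim to be retained. Ube2c was highest at 0.43 (SE 0.24) and Birc5 next at 0.37, while Bub1b was lowest at -0.08 and Ccnb2 was 0.06. Apoptotic targets were retained for all 9 genes with a median of -0.03, and the highest was Pmaip1, which encodes the BH3 protein Noxa, at 0.50 (SE 0.12, adjusted p = 0.217). Trp73 followed at 0.19, and Casp8ap2 was towards the lower end at -0.13.

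Among the regulators, G1 cyclins and kinases had 9 of 12 genes retained and a median of 0.01, from Ccnd2 at 0.38 (SE 0.18) and Ccna2 at 0.20 to Skp2 at -0.09 and Ccne1 at -0.07. All 6 retained cyclin-dependent kinase inhibitors were below 0 (5 of 6 with a shift to the 75th percentile), with a median of -0.10, from Cdkn1a at -0.02 and Cdkn1b at -0.03 to Cdkn1c and Cdkn2b at -0.12 and Cdkn2d at -0.17 (SE 0.07). Partners and subunits of the DREAM complex had all 11 genes retained with a median of -0.06. Here Rbl2, the third pocket protein, was 0.28 (SE 0.27) and Mybl2 was 0.21, while Tfdp1, the DNA-binding partner of E2F, was -0.11 and Dyrk1a was -0.09. Cofactors of the pocket proteins ranged from 0.10 for Smarca2 and 0.08 for Smarca4 to -0.06 for Sin3a and -0.18 for Arid4a. Genes of the E2F6 complex ranged from 0.18 for Ring1 and 0.06 for L3mbtl2 to -0.14 for Cbx3 and -0.22 for Pcgf6. The signal of each list, summed over its genes on each array, overlapped between the genotypes for all 8 lists.

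**Figure D4:**
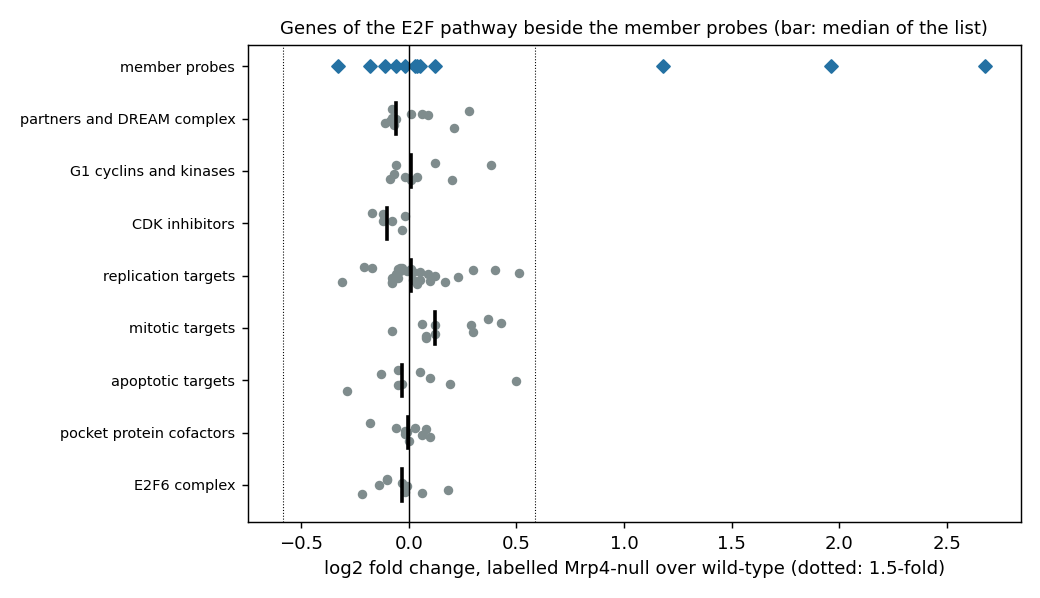
Log2 difference between the arrays labelled Mrp4-null and the wild-type arrays for the brightest retained probe of each gene of the 8 lists (points) and the member probes (top row), with a bar at the median of each list and dotted lines at 1.5-fold. The points of the lists lie between -0.31 and 0.51, with all CDK inhibitors below 0 and 9 of 10 mitotic targets above it, and in this plot only E2f2 and Rb1 probes lie above 1.

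The E2F motif was then set beside the differences of the listed genes. It stood before 10 of 25 replication genes with a promoter entry (40%), 1 of 16 mitotic genes (6.25%) and 12 of 47 targets in all (25.5%). The lists not counted as targets held it in 14.3% to 25% of their genes with an entry, 1 or 2 genes each. The share over all genes of the promoter table was 2.16%. Of the listed genes with both a promoter entry and a retained probe, 15 held the motif. Their log2 differences ranged from -0.14 to 0.40 with a median of 0.02, and 0 were called. The 56 without it ranged from -0.22 to 0.51 with a median of -0.01, and 0 were called by limma there too.

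The genes next to E2f2 and Rb1 were read in the order of the gene table, 10 to each side where a probe was retained. They had been looked at knowing that called genes lay near each other, so the counts are a description. Around E2f2 on chromosome 4, 3 of 20 genes were called (15%), against 0.652% of all genes. Asap3, the next gene after E2f2 and an Arf GTPase-activating protein, was higher, with a log2 difference of 1.26 (SE 0.09, adjusted p = 0.000436 by limma). Htr1d, a serotonin receptor, was lower at -0.63 (SE 0.10, adjusted p = 0.0327), and 1 of the 5 probes of Hnrnpr, an RNA-binding protein, was lower at -0.77 (SE 0.09, adjusted p = 0.00549). Id3, the next gene before E2f2, was 0.37 (adjusted p = 0.164), and Tcea3 was 0.63 (adjusted p = 0.283). At an unadjusted p under 0.05 by limma, a probe passed in 11 of the 20 genes, against 7.9% of all genes with a retained probe. This count holds Zfp46 only through a probe that was well above background on no wild-type array. That probe passed the filter only through the arrays on which it was high.

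Around Rb1 on chromosome 14, 3 of 21 genes were called (14.3%), all higher. Npm2, an oocyte histone chaperone, had a log2 difference of 0.94 (SE 0.13, adjusted p = 0.0204 by limma). Of the 2 probes of Xpo7, a nuclear exporter, 1 was at 1.02 (SE 0.13, adjusted p = 0.0098) and the other at 0.00. Fgf17, a growth factor, was not well above background on any wild-type array and was at least 1.37-fold higher (adjusted p = 0.00261), a bound set by the lowest signals well above background. This bound does not reach 1.5-fold, and the probe passed the filter only through the arrays on which it was high, so without it 2 genes were called around Rb1. Lpar6, a gene inside Rb1, was 0.26 (SE 0.13, adjusted p = 0.869), and the genes directly beside Rb1, Rcbtb2 and Itm2b, were -0.27 and 0.10 and not called. Leaving out any 1 of the 8 arrays removed the call of Htr1d, and leaving out Mrp4-null array 1, 3 or 4 or wild-type array 2, 3 or 4 removed that of Npm2. With the normexp correction Npm2, Htr1d and Fgf17 were not called. A probe passed an unadjusted p under 0.05 in 8 of the 21 genes, also against 7.9% of all genes, and this count holds Fgf17.

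**Figure D5:**
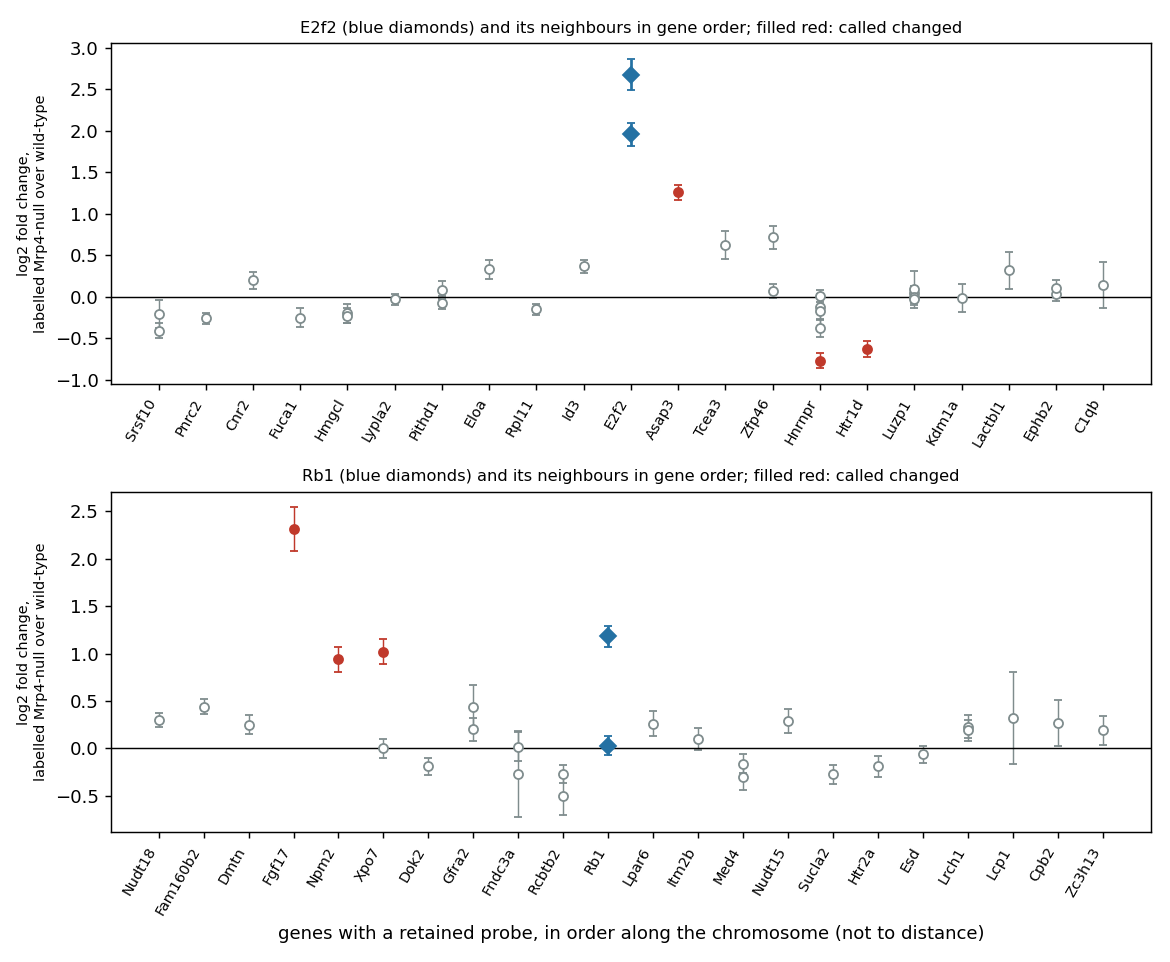
Log2 difference of each gene within 10 genes of E2f2 and of Rb1 in gene order, with filled red points for called probes, open points for others, blue diamonds for the member probes and bars for the SE. Asap3 is at 1.26 next to E2f2, and uncalled neighbours such as Tcea3 (0.63) and Id3 (0.37) also lie away from 0. The points of Fgf17 and of the upper Zfp46 probe are fitted values and not bounds, since neither was well above background on any wild-type array.

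The genes whose probe followed E2f2 most closely over the 8 arrays were Masp2 (Pearson r = 0.998), Gm36157 (0.995), Rex2 (0.993), Kdf1 (0.989) and Abcc4 (0.987). The first 4 lie on chromosome 4, as E2f2 does, and Abcc4 lies on chromosome 14. For the changed probe of Rb1 they were Myom2 (0.994), a second probe of Masp2 (0.992), Polr3d (0.990), Pdzd8 (0.988) and Crybg2 (0.987), on chromosomes 8, 4, 14, 19 and 4, and Polr3d shares chromosome 14 with Rb1. These correlations are set mainly by the gap between the genotypes, and they are given without a test. The log2 differences of these genes ran from 0.85 for Polr3d and Rex2 to 3.92 for Abcc4.

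Markers of retinal and other cells were read beside these results. Summed over their markers, rods gave a signal of 649000 to 702000 under the knockout label and 644000 to 701000 in wild type, and the sums of cone, bipolar and Muller glia markers overlapped as well. Cone genes lay 3 above 0 and 4 below. Muller glia genes lay 2 above 0 and 4 below (1 and 5 with a shift to the 75th percentile). In each of these 2 lists 1 gene had a probe at an unadjusted p under 0.05 by limma, Arr3 (0.34) and Aqp4 (-0.39). Of the 6 bipolar genes 5 were above 0 (4 with a shift to the 75th percentile), with a median log2 difference of 0.16. A probe of 3 of these genes had an unadjusted p under 0.05 by limma, against 7.9% of all genes, with a smallest adjusted p of 0.198. Ganglion cell markers summed to 70400 to 73100 against 74400 to 84500, and their sums did not overlap. Of these 8 genes 7 were below 0 (6 with normexp), with a median of -0.15 and a smallest adjusted p of 0.558. An unadjusted p under 0.05 by limma was seen for 2, Pou4f2 (-0.35) and Sncg (-0.26), against 7.9% of all genes. Of the 98 markers listed, 82 were retained, and 1 was called by limma: Cd52, a surface protein of leukocytes, on chromosome 4 like E2f2, with a log2 difference of 2.98 (SE 0.12, adjusted p = 1.46e-05). Its list of 8 microglia and leukocyte markers summed to 15200 to 23100 against 12500 to 17300. These sums rest mostly on Itgam, the brightest of the list, with a mean log2 signal of 13.73 against 13.48. Of the 8 genes 5 were above 0 and 3 below (Cx3cr1, Tmem119 and P2ry12), with a median log2 difference of 0.21. For the cells in which E2f2 is best known, 7 of 9 erythroid markers had a named probe and 4 were retained, with sums of 24700 to 43000 against 23600 to 42700. The defining genes Slc4a1, Ahsp and Klf1 were among those without a retained probe, whether too dim or not named on the array. Of 8 lymphocyte markers 7 had a named probe and 4 were retained, with sums of 972 to 1220 against 927 to 1130. The 4 retained erythroid markers and the 4 retained lymphocyte markers all lay above 0 under every scaling, with median log2 differences of 0.17 and 0.16 (0.16 and 0.07 with normexp), and none was called by limma or had an unadjusted p under 0.05. Endothelial markers overlapped at 4700 to 6060 against 5790 to 6920, with a median log2 difference of -0.29 (-0.13 with normexp). Of these 8 genes 6 were below 0 (5 with cyclic loess). An unadjusted p under 0.05 by limma was seen for 3, Emcn (-0.41), Kdr (-0.37) and Cldn5 (-0.22), against 7.9% of all genes. The smallest adjusted p of the list was 0.571. Pigment epithelium markers summed to 2000 to 2910 against 1860 to 3060, with 6 of 7 genes above 0 under every scaling, a median of 0.21 (0.10 with normexp) and a smallest adjusted p of 0.93. Skeletal muscle markers were retained for 3 of 8 genes, with a median of -0.01. Lens markers had a lower mean for all 13 genes under every scaling, with 0 called by limma and 11 by the local pooled error test, at 3360 to 25500 against 9300 to 55700, with a median log2 difference of -1.40. The part of these cell types in the values of E2f2 and Rb1 was not tested.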

How the data were processed

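Total RNA from 8 retinal samples was hybridized to one-color mouse arrays. The authors deposited, per the file headers of Agilent Feature Extraction 11.0.1.1, the processed signal intensity of each spot, background-subtracted and detrended within the array but not normalized between arrays, together with the median signals of spot and background. They also deposited a table of values for the series, which matched the mean processed intensity per probe. Controls and spots marked as outliers (78 to 143 per array) were left out, no spot was saturated, and 56605 probes remained, of which 58.3% were named through their accession and the gene table of GRCm38.p6. The array design is annotated on an older build, so positions are given only for promoters. Between 66.0% and 69.9% of probes were well above background on an array, and 4 arrays per group limit the precision.

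Retained probes were well above background on all measured arrays of either genotype (3 or more measured there, 2 or more in the other). The 37085 retained probes were quantile normalized on the log2 scale. R 4.3.3, limma 3.58.1 (lmFit, eBayes, with genotype alone in the model) were used, with Benjamini-Hochberg adjustment over all retained probes. A gene with several probes was represented in lists by the retained probe of the highest mean signal and counted as called if any probe was. The scripts were tested on simulated data. Alternatives were the methods' local pooled error test (bins of 0.01 of the values, spline of 10 degrees of freedom, with p adjusted here although the methods name no adjustment), cyclic loess, scaling to the 75th percentile, normexp with an offset of 50, the deposited table, other filters and thresholds, an intensity trend with robust variances, a replicate block, leaving out single arrays, and other numbers of neighbours. The files used here hold no mean signal for normexp, so the median signal was taken. Leaving out both arrays of low signal, the 75th percentile as a covariate and the slope on it were chosen after seeing the data.

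The members and all lists were chosen with earlier results of these data known. Genes named are the members, the called genes and the 2 highest and 2 lowest of each list, the called neighbours and any gene inside a member, Abcc4, and the 5 genes most like E2f2 and Rb1. Some genes that this rule names are not reported here. Mcm7, Id3, Tcea3, Zfp46, Rcbtb2, Itm2b and the marker genes were named after their values were seen.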

Additional observations from a re-analysis of the deposited data

Results flagged for a closer look

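Among the groups of 4 arrays screened, 26 in all, 1 held an array that stood apart from the others. For E2f3 (A_52_P508167) on the arrays labelled Mrp4-null, array 4 read 4.87 and the other 3 lay between 4.36 and 4.44 (log2 signal), so that the gap took a share of 0.833 of the whole range, above the critical value of Dixon's test for 4 arrays. Chance gives such an array in about 1 of 20 groups.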

How the results depend on the processing

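The family was selected on the differences of E2f2 and Rb1, so their repeated calls give no support and are not counted here. The second E2f2 probe was not retained under the stricter filter. No listed pathway gene was called under any alternative. The 202 called probes over the whole array fell to 71 with the replicate number as a block, to 106 at a fold change of at least 2, to 124 without both arrays of low signal and to between 116 and 185 when 1 array was left out, the lowest being without wild-type array 4 (126 without wild-type array 3, 131 without wild-type array 2). The 6 called neighbour genes became 3 with normexp, 3 with no filter, 3 at a fold change of at least 2, 3 without both arrays of low signal and 1, Asap3, with the replicate block. Samples of the same number did not deviate together (r = -0.29, -0.69, 0.03 and 0.41 over the 4 pairs), so they share only a number, and the block changed no call among the pathway lists or the markers. The 1 called marker gene became 12 with the local pooled error test, of which 11 were lens genes, and 2 with the 75th percentile as a covariate. The 2 Rbl1 slopes that passed became 0 to 2 when 1 array was left out. With normexp 2 member probes passed, the first Rbl1 probe and the changed Rb1 probe. Apart from normexp and the arrays or genes removed by a filter, the cause of these changes was not tested. Probes near background limit what can be said of E2f8, E2f3, the second E2f2 probe and the second Rbl1 probe.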
